A study of Arabidopsis thaliana and Zea mays with 12 samples.

Results

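Calmodulin is the small calcium sensor that all eukaryotes share, and in Arabidopsis thaliana it is encoded by 7 genes, CAM1 to CAM7. These genes and the touch-induced calmodulin-like genes TCH2 (CML24) and TCH3 (CML12) were taken by their locus identifiers from a table of leaf transcript levels, and all 9 were found among its 27411 genes. The values were FPKM (fragments scaled by transcript length and by the size of the library) of 2 RNA-seq replicates, prepared from leaves of wild-type Col-0, at an age of 3 weeks, with no mutation and no treatment. The methods call the replicates biological, and they give plants of this age as the RNA source without naming a tissue. The series holds 12 samples. The other 10, which are an input library and 4acC-IP libraries from maize, from met1 and rdd mutants and from wild type with or without NH2OH treatment of its DNA, were not analysed here. With 1 condition measured, the data give levels and their spread between replicates, and no response of any gene to touch, calcium or another stimulus.

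Calcium enters the plant cell cytosol within moments of touch, wounding, cold or attack, and calmodulin binds it through helix-loop-helix units called EF hands. Loaded calmodulin then changes shape and grips its targets, among them calcium pumps, ion channels, kinases, glutamate decarboxylase and transcription factors. Calmodulin has no enzymatic activity of its own, so its many effects are those of its targets. The TCH genes were found as transcripts that build up after leaves are touched or sprayed. TCH1 is a calmodulin gene, and the RefSeq annotation lists TCH1 as a synonym of CAM1. TCH2 and TCH3 encode calmodulin-like proteins, and TCH4 encodes XTH22, a cell wall enzyme that cuts and rejoins xyloglucan.

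The 7 CAM genes spell nearly the same protein with different codons. Each coding sequence translates to 149 residues with 4 EF-hand loops, and CAM2, CAM3 and CAM5 encode 1 identical protein, as do CAM1 and CAM4. Over the 21 pairs of CAM genes the proteins differ at 0 to 5 residues (96.6 to 100% identity), whereas the coding sequences differ at 39 to 78 bases (82.7 to 91.3% identity). The stretch that codes for the third EF-hand loop shows this. It translates to the same residues in all 7 genes, and it is printed here in full because the bases in capitals, those unlike CAM3, are what lets a read be assigned to 1 gene of the family. The sequences are from the RefSeq TAIR10.1 genome, 5′ to 3′ on the coding strand, and each lies within 1 coding exon.
CAM3 (chr3:21035116-21035151, minus strand): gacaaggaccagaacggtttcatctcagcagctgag
CAM6 (chr5:7214875-7214910, minus strand): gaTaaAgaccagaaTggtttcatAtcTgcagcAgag
CAM5 (chr2:11532890-11532925, plus strand): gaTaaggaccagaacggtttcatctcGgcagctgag
CAM4 (chr1:24774566-24774601, minus strand): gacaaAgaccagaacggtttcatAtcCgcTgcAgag
CAM7 (chr3:15664754-15664789, minus strand): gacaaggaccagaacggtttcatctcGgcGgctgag
CAM1 (chr5:15004904-15004939, minus strand): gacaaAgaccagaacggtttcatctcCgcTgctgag
CAM2 (chr2:17141022-17141057, plus strand): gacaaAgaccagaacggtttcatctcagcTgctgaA
CAM5 and CAM7 are the nearest to CAM3 here, with 2 unlike bases each, and CAM6 is the farthest, with 6 of 36. Longer reads carry more such bases. No stretch of 100 or of 150 bases of any member's transcript occurs elsewhere in the genome or in another member. At 50 bases this holds for all but TCH3, where 9 of 1203 stretches (0.748%) occur elsewhere. The sources used here do not say how reads with several possible origins were handled.

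TCH2 and TCH3 stand farther off. TCH2 has 161 residues and 4 EF-hand loops and is 40.8 to 41.5% identical to the calmodulins. TCH3 has 324 residues and 6 loops and is 62.4 to 63.8% identical to them over the aligned part, while TCH2 and TCH3 share 32.7%.

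CAM3 (AT3G56800) was the leading calmodulin transcript of these leaves. It had 539 FPKM in replicate 1 and 448 in replicate 2, with a mean of 494 ± 64.1 (SD, n = 2, as for all values below). It lay at rank 261 of the table, above 99.0% of the genes. The gene lies on chromosome 3 of TAIR10.1 from 21034534 to 21036166. CAM6 (AT5G21274), the next member, had 178 and 148 FPKM (163 ± 20.9). CAM3 was thus 3.03-fold higher, and the replicates of the pair were far from overlapping.

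CAM5 (AT2G27030) had 105 and 83.2 FPKM (94.1 ± 15.4). CAM4 (AT1G66410) had 86.8 and 72.4 (79.6 ± 10.2), and CAM7 (AT3G43810) had 68.7 and 65.1 (66.9 ± 2.56). These form the middle of the family. CAM7 is also known as a DNA-binding regulator of light-responsive genes in seedlings. CAM1 (AT5G37780), the touch gene TCH1, had 53.8 and 43.2 FPKM (48.5 ± 7.55). CAM2 (AT2G41110) was the lowest of the 7 with 32.1 and 27.7 FPKM (29.9 ± 3.13). CAM3 exceeded it 16.5-fold, although both encode the same protein.

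TCH2 (AT5G37770) lay among the calmodulins, with 109 and 96.5 FPKM (103 ± 9.04), the third of the 9 members by the deposited values. It encodes a calcium sensor tied to flowering time and responses to touch. TCH3 (AT2G41100) was the lowest member by the deposited values, with 15.0 and 13.2 FPKM (14.1 ± 1.29). It lay at rank 4493, above 83.6% of genes, and CAM3 exceeded it 35.1-fold.

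**Figure D1:**
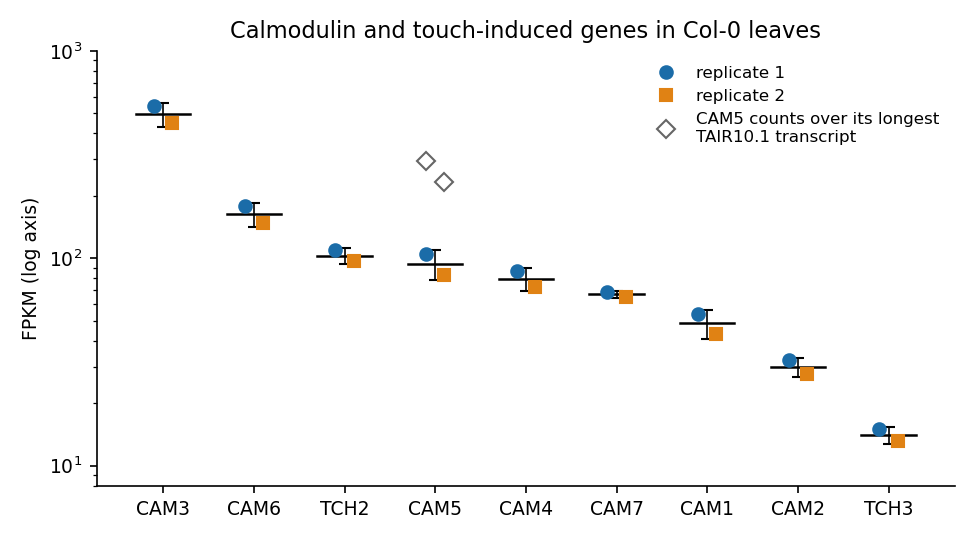
FPKM (log axis) of the 9 genes in the 2 replicates of Col-0 leaves, in order of mean level, where circles are replicate 1, squares replicate 2, and bars the mean ± SD. CAM3 (539 and 448) stands above the rest and TCH3 (15.0 and 13.2) below, and the open diamonds give CAM5 with its counts set over its longest TAIR10.1 transcript (295 and 234).

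All 9 genes had a mean above 1 FPKM, against 47.7% of the 27411 genes, and all 9 were among the highest 25.0% of the table, which begin at 6.10 FPKM. Of the 8 neighbouring pairs in the order of levels, 2 overlapped between replicates, namely TCH2 with CAM5 and CAM5 with CAM4. The other neighbours did not overlap, and all 8 pairs kept their order within each replicate. The smallest step outside the overlapping pairs was between CAM4 and CAM7, where CAM4 was 1.19-fold higher and its lower replicate (72.4) was just above the higher one of CAM7 (68.7).

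The CAM genes together summed to 1063 FPKM in replicate 1 and 888 in replicate 2 (976 ± 124), which was 0.107 and 0.0913% of the FPKM sums of these libraries. In the whole table, 136 genes were each above that mean alone. CAM3 gave 50.6% of the calmodulin sum, CAM6 16.7%, CAM5 9.62%, CAM4 8.16%, CAM7 6.89%, CAM1 4.96% and CAM2 3.07%. The shares hardly moved between replicates, since that of CAM3 was 50.7 and 50.5% and that of CAM7, which moved most among the proteins, was 6.46 and 7.33%.

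Grouped by the protein they encode, the transcripts fell into 4 classes. The protein of CAM2, CAM3 and CAM5 had 676 and 559 FPKM behind it, or 63.3 ± 0.436% of the sum. CAM6 followed with 16.7 ± 0.0241%. The protein shared by CAM1 and CAM4 had 141 and 116 FPKM, or 13.1 ± 0.152%, and CAM7 had 6.89 ± 0.612%. CAM7 and CAM6 each differ from the most abundant protein by few residues, namely 1 for CAM7 and 2 for CAM6, whereas the protein of CAM1 and CAM4 differs from it by 5.

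**Figure D2:**
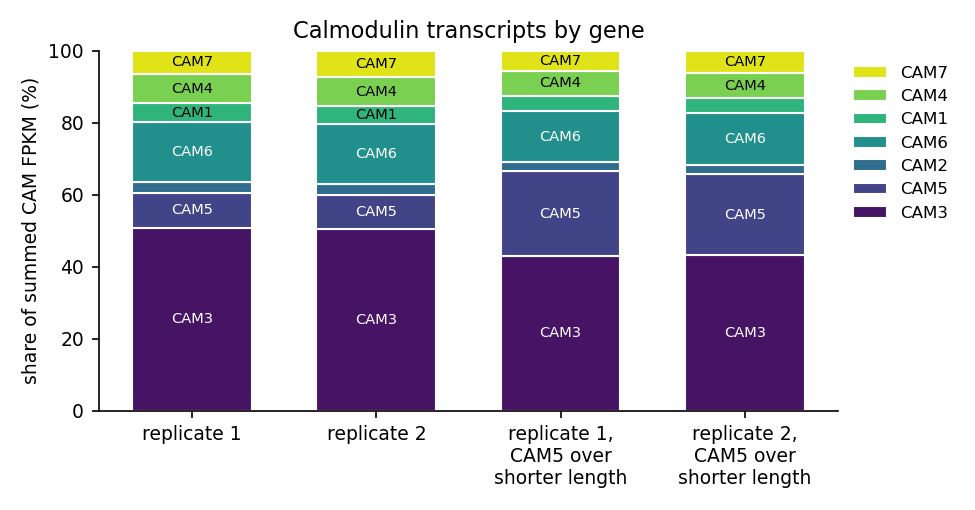
Share of the summed calmodulin FPKM (%) given by each CAM gene, with 1 bar for each replicate as deposited and 1 for each with CAM5 counts over the shorter transcript length. CAM2, CAM3 and CAM5, drawn at the bottom, encode 1 protein and hold 63.3% on average as deposited and 68.7% with the shorter length.

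The place of CAM5 depended on the length behind its FPKM. The deposited values could be written as whole counts over a whole transcript length for all 21309 genes above 0 in both replicates, which shows the length that went into each value, up to a common factor. For CAM5 this length was 2330 bases. The longest CAM5 transcript of TAIR10.1 has 830 bases, the length used is 2.81-fold longer, and the gene spans 2392 bases with its intron. Such a gap was found in 74 of 21276 genes (0.348%), which had a length over 1.5 times their longest transcript. This share is a lower bound, since the smallest length that fitted was kept for each gene. The same counts, 22769 and 20475, over 830 bases give CAM5 295 and 234 FPKM (264 ± 43.1). CAM5 would then be the second member, above CAM6 with no overlap, and would hold 23.0% of the calmodulin sum, with CAM3 at 43.1% and CAM6 at 14.2%. The protein of CAM2, CAM3 and CAM5 would hold 68.7%, CAM6 14.2%, that of CAM1 and CAM4 11.2% and CAM7 5.87%. With CAM5 over either length, CAM3 was first and TCH3 last. Whether some CAM5 counts fell in the added stretch was not tested. Other members had smallest fitting lengths below their shortest TAIR10.1 transcript. For TCH3 this length was 175 bases, against transcripts of 1194 to 2288. For TCH2 it was 766, against 910 and 1737, and for CAM7 803, against 947 to 1946. For CAM3 it was 1051, against 1143, and for CAM6 759, against 818. Except for CAM3, a multiple of this length would also have fitted within the gene, so the lengths used for TCH3, TCH2, CAM7 and CAM6 are not settled. Levels of these members over TAIR10.1 lengths were not computed. The places of TCH2 and TCH3 may thus depend on their lengths as well.

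The counts also give the counting error. For the 8 members other than TCH3, whose length could not be settled, they ran between 2559 for CAM2 in replicate 2 and 52746 for CAM3 in replicate 1, and the exact 95% Poisson interval reached 0.854 to 3.89% to either side. These are the smallest counts the values allow. For CAM6, TCH2, CAM4 and CAM7 a multiple of the length would also have fitted within the gene, and the intervals would then be narrower. CAM3 had an interval of 534 to 544 FPKM in replicate 1 and of 445 to 452 in replicate 2. The intervals cover counting error only, and in 0 of the 8 genes did those of the replicates overlap. This was the usual case at such depth, since they did not overlap in 75.6% of the 2996 genes whose counts were at least 2559 in both replicates. CAM7 came nearest, with a lower bound of 66.8 in replicate 1 and an upper bound of 66.8 in replicate 2. The intervals take each count as independent. If the reads of a pair were counted separately, the intervals would be wider, and those of CAM7 could overlap. The SD between replicates was 3.83 to 16.3% of the mean over all 9, and it is the error to set beside a level.

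All 9 genes were lower in replicate 2, by 5.27% for CAM7 to 20.7% for CAM5. This direction was common, since 68.3% of the 13074 genes above 1 FPKM were lower in replicate 2, and 76.2% of the 4233 genes within the members' range of mean FPKM. On the scale of log2((replicate 2 + 1)/(replicate 1 + 1)) the members had a median of -0.26 and a range of -0.33 to -0.08, against a median of -0.07 for genes above 1 FPKM (SD 0.17 across genes) and of -0.12 for genes in the members' range. None of the 9 was 1.5-fold apart or more (0 of 9), as against 0.383% of all genes. With 1 library on each side, these ratios describe the libraries. The 6 leaf markers summed to 63620 FPKM in replicate 1 and 80829 in replicate 2. CAB1, RBCS1A, LHCB2.1 and RCA were higher in replicate 2, and the other 2, GAPB and SBPASE, were lower. The part of these transcripts in the lower calmodulin values was not tested.

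**Figure D3:**
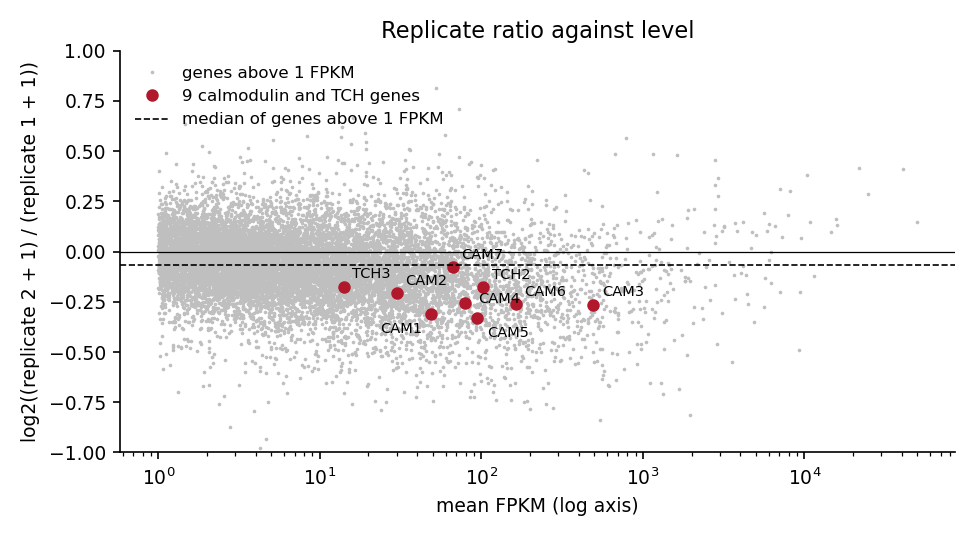
Log2 ratio of replicate 2 to replicate 1 (pseudocount of 1 FPKM) against mean FPKM (log axis) for the 13074 genes above 1 FPKM in grey, of which 2 lie beyond the axis, and the 9 members in red. The members lie between -0.33 and -0.08, below 0 and below the dashed median of -0.07.

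The labelled tissue was checked against its markers. The 6 leaf markers were all above 1 FPKM, with a median of 3190. Of the root markers 3 of 7 were above 1, against 47.7% of all genes. The highest was PYK10 with 7.50 ± 0.678 FPKM, and 2 were listed at 0. None of the markers of flower (0 of 4), pollen (0 of 5) or seed (0 of 4) was above 1.

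Several members sit beside each other or beside a calmodulin-like (CML) gene on the same strand, and the levels of these neighbours differed. On chromosome 5, TCH2 (14997514 to 14999619 in TAIR10.1) and CAM1 (15004466 to 15006267) are adjacent, with 4846 bases between them. In the deposited FPKM, TCH2 was 2.12-fold higher than CAM1. On chromosome 2, TCH3 (17137037 to 17139700) lies 482 bases before CAM2 (17140183 to 17141431). In the deposited FPKM, CAM2 was 2.13-fold higher than TCH3. On the other side of TCH3, after only 37 bases, is AT2G41090, annotated as a calcium-binding EF-hand family protein. It had 414 and 332 FPKM (373 ± 58.3) and was 12.5-fold above CAM2, so that the lowest member stands beside one of the most abundant genes of the wider family. On chromosome 1, CAM4 (24774113 to 24775984) lies 2719 bases from CML23, the closest relative of TCH2, which had 15.7 and 11.7 FPKM (13.7 ± 2.84). CAM4 was 5.81-fold higher than CML23. The order within each of these pairs was the same in both replicates, with log2 ratios (pseudocount of 1) of -1.01 and -1.14 for CAM1 over TCH2, 1.05 and 1.02 for CAM2 over TCH3, and 2.39 and 2.53 for CAM4 over CML23.

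Some members share bases with a gene on the opposite strand. TCH2 overlaps AT5G37760, a DnaJ-domain gene, by 723 bases, and CAM2 overlaps AT2G41120 by 157 bases and a long noncoding RNA by 609. AT5G37760 was at 0.654 and 0.486 FPKM and AT2G41120 at 5.62 and 4.97. TCH3 overlaps an antisense noncoding RNA by 342 bases and a protein-coding gene by 827, and neither has a row in the table. The sources used here do not say whether counting used strand, and without strand the reads of overlapping genes cannot be separated.

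TCH2 also stood apart by its promoter. Motifs were searched on both strands in the 250 bases before each gene's annotated start. CGCGTT is known as the rapid stress response element of early wound genes. ACGCGT is a form of the core bound by the calmodulin-binding transcription activators (CAMTA), and other forms of that core were not searched. CGCGTT was in 2.59% of 26713 promoters and ACGCGT in 1.69%. Of the 9 members, only TCH2 held either. Both motifs overlap in the palindrome AACGCGTT, which TCH2 carries 2 times, beginning 84 and 65 bases before the start. The stretch around them is printed because it holds every CGCGTT and ACGCGT match of the members, with the palindromes in capitals (TAIR10.1, chr5:14999657-14999723, minus strand).
TCH2 promoter, 104 to 38 bases before the start: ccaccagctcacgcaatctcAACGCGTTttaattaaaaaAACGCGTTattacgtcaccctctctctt
The palindrome, chosen after it was seen here, was in 67 promoters (0.251%), and TCH2 was the only 1 of 26713 with 2 or more copies in this window. The G-box CACGTG (6.58% of promoters) was in none of the 9 (0 of 9). TATAAA (47.7%) was in those of CAM3, CAM6, TCH2 and CAM1, and in TCH2 it began 30 bases before the start. A match is a description of letters and not a site of binding. The other members have no copy of CGCGTT or ACGCGT in this window, with starts taken either from the gene or from its first transcript model, which for TCH3 lie 1028 bases apart.

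The members were set beside a list of the 48 other CML genes, which encode relatives of calmodulin with less similar sequences and largely unknown targets. Of these 29 were above 1 FPKM, 21 were at or above the 6.10 FPKM where the highest 25.0% of the table begin and 6 were listed at 0 in both replicates. Over all genes 47.7% were above 1 FPKM. The median was 79.6 FPKM for the 9 members, against 2.00 for these genes and 0.823 for all genes. AT2G41410 led with 438 and 411 FPKM (425 ± 19.3), followed by AT2G41090. AT5G04170 had 137 ± 6.55, CML9 123 ± 12.6, AT1G18210 78.5 ± 0.370 and AT1G12310 78.0 ± 2.48. All but CML9, which the annotation also calls calmodulin 9, are annotated only as calcium-binding EF-hand proteins. With both included, TCH2 held place 5 and TCH3 place 19 of 50 CML genes. Only CAM3 of the calmodulins was above AT2G41410, and 14 CML genes were above CAM2. The CAM genes summed to 1063 and 888 FPKM, against 1831 and 1644 for the other CML genes. No member was near the low end of the CML range.

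**Figure D4:**
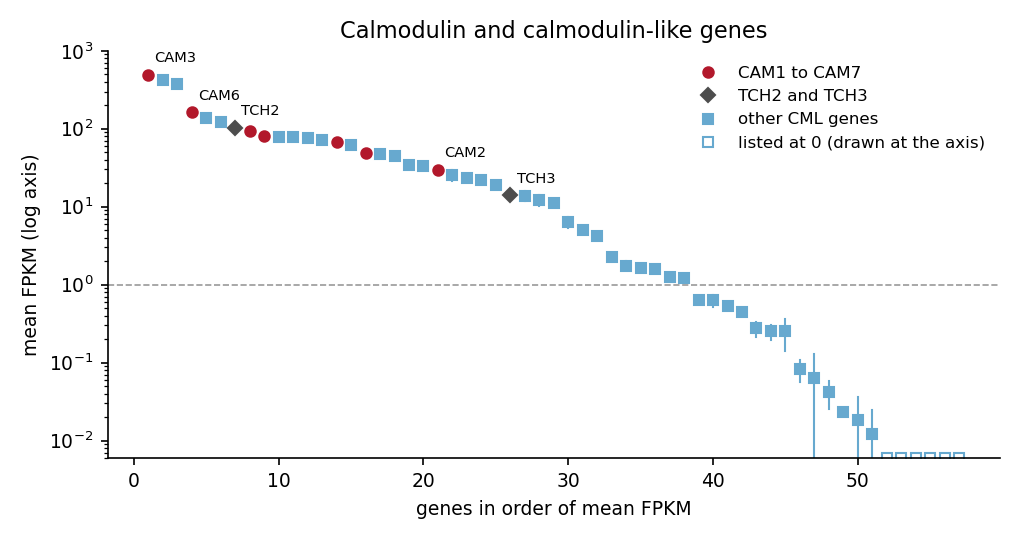
Mean FPKM (log axis) of the CAM genes (red circles), TCH2 and TCH3 (grey diamonds) and 48 other CML genes (blue squares) in order of level, with lines joining the replicates and the dashed line at 1 FPKM. All 9 members lie at 14.1 FPKM or above, while 29 of the other CML genes are above 1 and 6 are listed at 0.

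Other calcium sensors were lower than the calmodulins. Of the 10 CBL genes, whose products bind calcium and recruit CIPK kinases, 5 were above 1 FPKM, 1 was listed at 0 and the median was 1.96. CBL2 had 21.1 ± 1.93 FPKM, CBL3 17.6 ± 0.385 and CBL10 15.2 ± 1.40, all below CAM2, which itself lay above 89.8% of all genes. Of the 34 CPK genes, kinases with a calmodulin-like domain of their own, 16 were above 1, 6 were listed at 0 and the median was 0.644. Over all genes 47.7% were above 1 and the median was 0.823. CPK3 was the highest with 12.8 ± 0.913 and CPK5 had 7.32 ± 0.149. TCH3 (15.0 and 13.2) overlapped with CPK3 (12.2 and 13.5) between replicates and was above CPK5 in both.

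Targets of calmodulin were likewise lower than the calmodulins. Of 26 genes for calmodulin-binding proteins, 13 were above 1 FPKM, 2 were listed at 0 and the median was 1.02. Over all genes 47.7% were above 1 and the median was 0.823, so this list lay near the usual level. DWF1, a calmodulin-binding enzyme of brassinosteroid synthesis, had 28.5 ± 0.467 FPKM. GAD2, a glutamate decarboxylase that calmodulin activates, had 25.5 ± 0.484, and the cation channel gene CNGC2 had 21.6 ± 0.889. MLO2, a membrane protein of powdery mildew susceptibility, had 9.65 ± 0.406. CNGC4 had 4.41 ± 0.00914 and the vacuolar calcium pump gene ACA4 2.80 ± 0.112. All 26 were below the lowest calmodulin gene, CAM2, at 29.9, and DWF1 came close to it. CAM2 lay above 89.8% of all genes, so a lower level is the usual case. The replicates of CAM2 (32.1 and 27.7) lay on either side of those of DWF1 (28.8 and 28.1).

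The early touch and wound genes give the setting for TCH2 and TCH3. TCH4 (XTH22), the remaining TCH gene, had 10.2 and 9.54 FPKM (9.87 ± 0.456), below TCH3 with no overlap. Of the 14 genes of this list 13 were above 1 FPKM and 9 at or above 6.10, and the median was 9.43. Over all genes 47.7% were above 1 and 25.0% at or above 6.10. ARGAH2, an arginase, had 64.2 ± 1.11 and CAF1a, an mRNA deadenylase, 59.5 ± 6.04. The transcription factor genes CBF3, CBF2, STZ and ERF104 had 20.5 ± 0.0773, 16.6 ± 0.293, 14.3 ± 0.0708 and 10.9 ± 0.160 FPKM in that order. TCH2, which lay above 96.0% of all genes, was above all 14. Handling of the leaves before RNA extraction is not described, and its part in these levels was not tested.

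Of the 8 genes for mechanosensitive channels, 5 were above 1 FPKM and the median was 1.04, against 47.7% and 0.823 for all genes. OSCA1, an osmosensing calcium channel, had 8.94 ± 0.434, MCA1, a stretch-activated calcium channel component, 2.54 ± 0.127, and MSL3, a plastid channel, 2.02 ± 0.143. MSL10 had 1.05 ± 0.0824. These were below all 9 members, of which the lowest, TCH3, lay above 83.6% of all genes.

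**Figure D5:**
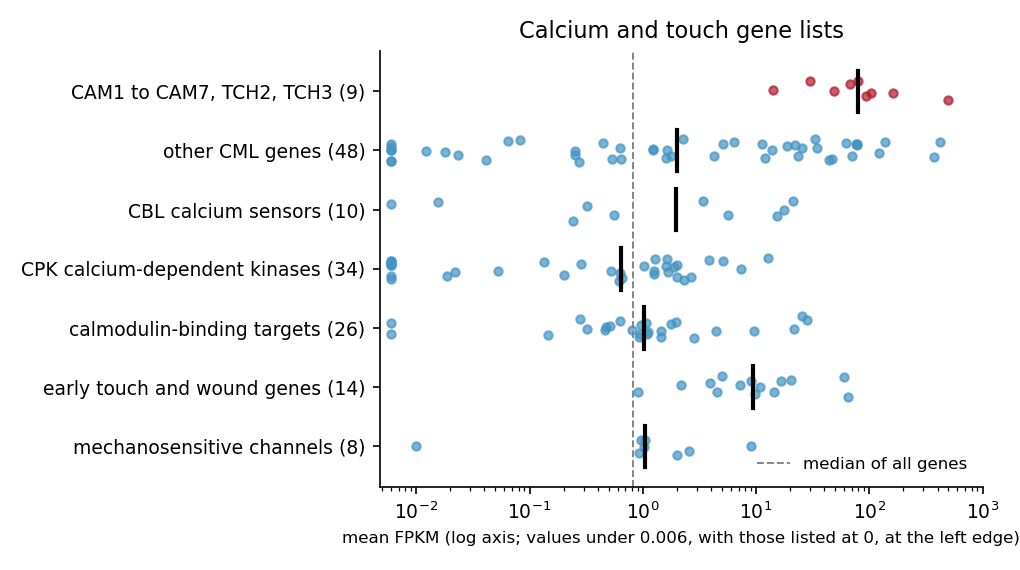
Mean FPKM (log axis) of the genes of each list, 1 point per gene, with the number of genes in parentheses, black bars for list medians and the dashed line for the median of all genes (0.823). The 9 members, at the top, have a median of 79.6 FPKM, against 0.644 for CPK genes and 9.43 for early touch and wound genes.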

How the data were processed

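The FPKM values were deposited by the authors, 1 for each coding gene and replicate. TopHat v2.0.9 placed the reads on TAIR10. The methods state that the FPKM came from Cufflinks v2.1.1, which the submitters' processing notes name beside Bowtie2. The annotation release, strand setting and treatment of reads with several origins are not given. In these files each value equals a count divided by a length and by 93100036 (replicate 1) or 105573623 (replicate 2). The count was whole within 1e-05 for a length of 150 to 19999 bases, and the smallest such length was kept. The files do not say whether reads or fragments were counted.

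From the FPKM, the mean and SD of the replicates, ranks and log2 ratios with a pseudocount of 1 FPKM were computed, with no filter on low values. A gene counted as apart from 1.5-fold. No test was made, since 1 condition has values. The members, lists and motifs were chosen with earlier results of these data known, and the lists came from textbook knowledge. The genes named were all members, the genes beside them, and up to 6 of each list by mean FPKM, together with XTH22. RefSeq TAIR10.1 gave names (26714 of 27411 IDs matched), coordinates and sequences. Proteins were translated from it and aligned globally (BLOSUM62, gap opening 11, extension 1). Of the 48 CML genes, 47 are annotated as calmodulin, EF-hand, calcium-binding or centrin genes. Recovery of the library totals and of the ratio of count to length, and the 1.5-fold call, were tested on simulated counts. The alignments, motif search, neighbours and lists were not tested in this way. The alternatives were TPM scaling, pseudocounts of 0.1 and 0.01, thresholds, centring, each replicate left out and another length for CAM5. Python 3.11.15, Biopython 1.88, scipy 1.17.1, pandas 2.3.3, matplotlib 3.10.9 and numpy 2.4.6 were used.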

Additional observations from a re-analysis of the deposited data

How the results depend on the processing

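Of 59 values under an alternative, 8 moved and 51 did not. A value counted as moved when it changed by the replicate SD or more. For the median log2 ratio the SD was that across members, and a count moved when it changed by more than 1.5 times. With 2 replicates, leaving 1 out always shifts a mean by less than the SD. That outcome was thus fixed in advance for the sum, the median and the shares, and nearly so for the log2 pair levels. A change of sign could be seen only in the log2 ratios, and there was none. The 8 include log2 CAM2 over TCH3, which was 1.08 and 1.09 with pseudocounts of 0.1 and 0.01, against 1.04. The other 6 came from setting CAM5 over its longest TAIR10.1 transcript, an alternative chosen after seeing the data. The calmodulin sum was then 1146 FPKM, the share of CAM2, CAM3 and CAM5 68.7%, that of CAM6 14.2%, that of CAM1 and CAM4 11.2% and that of CAM7 5.87%, and 0 neighbouring pairs overlapped, since CAM5 no longer stood next to TCH2 and CAM4. With either replicate left out, the calmodulin sum was 888 to 1063 FPKM, the median of the members 72.4 to 86.8, and the other CML genes above 1 FPKM numbered 29. Among genes above 1 FPKM only, 8 of 9 members were among the highest 25%. No paired analysis was possible because the table holds no group to pair with Col-0. With 2 replicates the SDs themselves are uncertain, and the levels depend on transcript lengths that are known only up to a common factor.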

Other observations

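The genes that flank the members without being calmodulin or calmodulin-like genes were all lower than the member they flank. This held for 12 of 12 in both replicates, with log2 ratios of member over neighbour (pseudocount of 1) of 1.79 to 8.90. The flanked members lie above 89.8 to 99.0% of all genes, so a lower neighbour is the usual case. PAG1, a proteasome subunit gene beside CAM5, was the highest with 26.4 ± 0.523 FPKM (SD, n = 2). GSTU27, a glutathione S-transferase gene beside CAM7, had 8.73 ± 0.640 and CIPK26, a kinase regulated by CBL calcium sensors and flanking CAM6, 3.98 ± 0.433. Of the 12, 6 were above 1 FPKM, against 47.7% of all genes. AT3G56790, which lies 78 bases from CAM3 on the same strand, had 0.0346 and 0.0305 FPKM.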
